A study of Glycine max with 12 samples.

Results

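GIGANTEA (GI) and TOC1, genes of the evening side of the plant circadian clock, were followed in young leaves of field-grown soybean that stood among weeds or in weed-free plots. The members are all genes that the deposited expression table pairs with the Arabidopsis locus of GI or of TOC1. These were 7 genes of 30498 table entries, 3 copies of GI and 4 copies of TOC1, and all 7 passed the filter on low values. LUX, the third evening gene sought, was not analysed here. The copies were chosen by their annotated locus. A limit of 10 copies by mean level was not reached, so no level decided which copies are described, but the gene names themselves were selected on earlier results of these data.

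The study held 12 RNA sequencing libraries from the cultivar AG1631, 6 from weedy and 6 from control plots, grown in 4 seasons near Brookings. Each library came from 1 plot, where trifoliate leaves that had just opened and measured under 2 cm were pooled from at least 8 plants. There was 1 library per treatment in 2008 and in 2009, and 2 per treatment in 2010 and in 2011. The weeds were velvetleaf with buckwheat in 2008 and 2009, flax in 2010, and velvetleaf with common sunflower in 2011. Their approximate density per square metre was 300 plants in 2008, 48 in 2009, 600 in 2010 and 160 in 2011. Control plots were kept clean with S-metolachlor (Dual II Magnum) in 2008, with sethoxydim (Poast) in 2009, with glyphosate in 2010 and with a mixture of glyphosate, S-metolachlor, sethoxydim and imazethapyr in 2011. In 2009 the labels put the spraying on June 26 and the sampling on June 25, so those control leaves were taken before it. Leaves were sampled on June 23 in 2008, June 22 in 2010 and June 29 in 2011. The sources used here do not give the hour of sampling. Season, weather, weed species, herbicide and sampling date cannot be told apart in this design. In 2010 and 2011 replicate 1 is taken to be the plot with 76 cm rows and replicate 2 the plot with 18 cm rows, a reading of column names that is an inference. A label marks 1 of the read files of weedy replicate 2 of 2011 as corrupt.

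The circadian clock of plants is a loop of repressors that follow each other through the day. The Myb proteins LHY and CCA1 act around dawn and repress the evening genes, the pseudo-response regulators follow during the day, and TOC1, itself a pseudo-response regulator, represses the morning genes from dusk onwards. GI is a large protein of the late day that stabilises the F-box protein ZTL, which in turn marks TOC1 for destruction, and in Arabidopsis GI acts with the F-box protein FKF1 to promote flowering in long days. These roles were worked out mainly in Arabidopsis. In soybean a GI gene underlies the maturity locus E2, but the deposited table does not pair any of the 3 copies with that locus. Messenger RNA of most of these genes rises and falls within each day.

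Levels are given as log2 FPKM, the logarithm of a fragment count scaled for gene length and library size, as the authors deposited them. All 12 libraries were brought to the same set of values, from 0.00 to 13.50 with a median of 3.22, so a level states the place of a gene among all genes of its library. The table gives no read counts, and the depth behind a value is unknown. Copies of 1 gene can be near-identical, and the sources used here do not say how reads matching several copies were shared out. The first principal component over all genes held 50.8% of the variance and set the libraries of 2008, at -110 and -97.8, apart from the other 10, at -37.1 to 71.1. Summed over 13 genes of 6 leaf mesophyll loci, all of which were found, marker levels were 14.42 to 14.46 in 2008, 13.87 to 14.14 in 2009, 12.74 to 13.47 in 2010 and 13.37 to 14.24 in 2011 on the log2 scale. Of 3 shoot meristem loci 1 was found, at a mean of 0.92, and of 2 flower loci and 1 seed locus listed 0 were matched.

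Each gene had abundant copies and 1 low copy. GI Glyma10g36600 averaged 4.69 ± 0.63 (SD, n = 12 libraries) and GI Glyma20g30980 4.51 ± 0.43, followed by TOC1 Glyma05g00880 at 4.29 ± 0.32, TOC1 Glyma17g11040 at 3.82 ± 0.38 and TOC1 Glyma04g33110 at 3.38 ± 0.22. Neighbours in this order overlapped in their range over the libraries. TOC1 Glyma06g21120 stood lower, at 2.43 ± 0.36, and GI Glyma09g07240 lowest, at 1.40 ± 0.46. GI Glyma09g07240 reached a log2 level of 1 in 10 of the 12 libraries, and a value so near 0 can be a low or floored estimate.

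**Figure D1:**
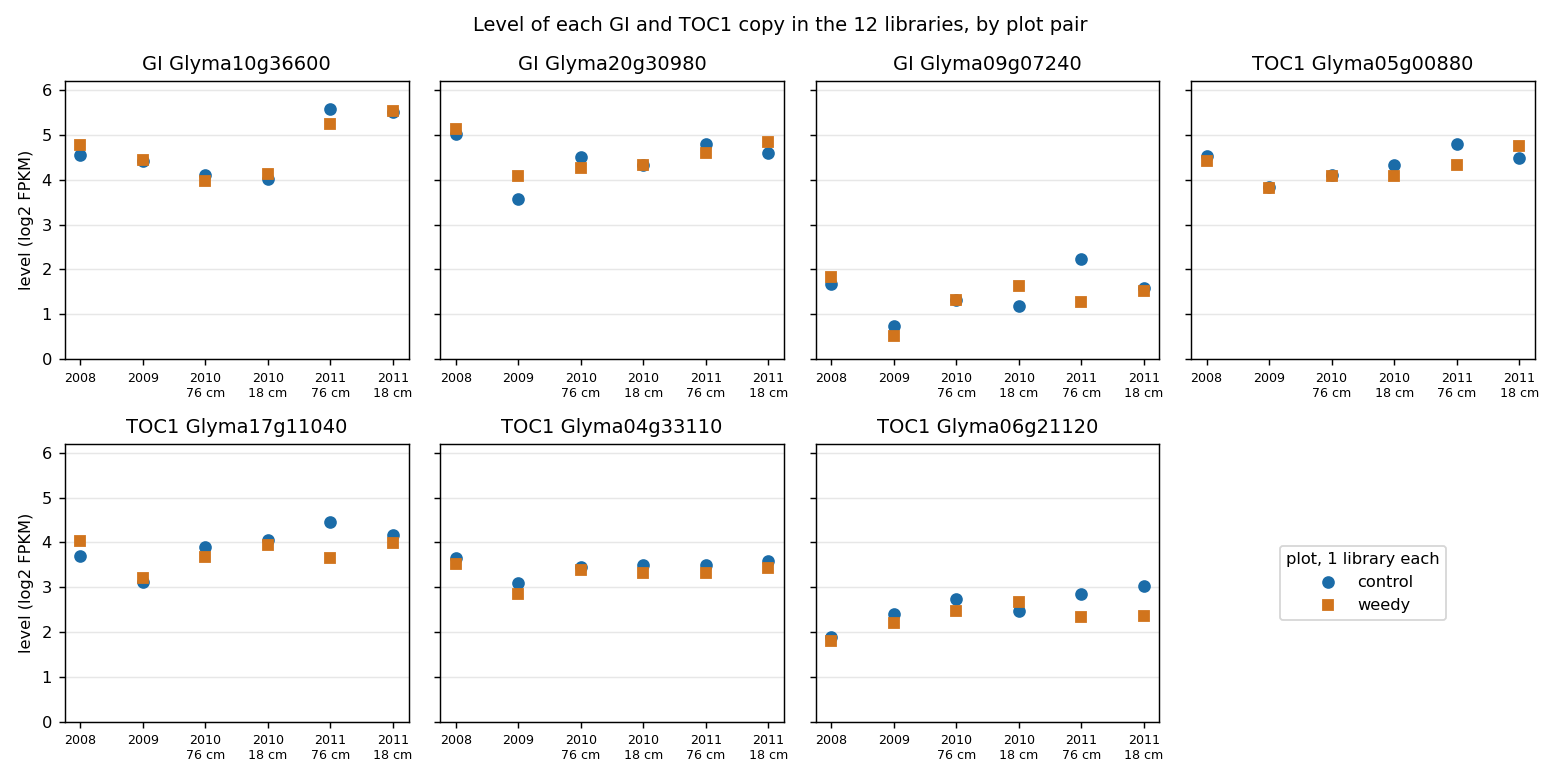
Level of each GI and TOC1 copy (y axis, log2 FPKM) in the 12 libraries, arranged by season and row spacing (x axis). Each circle is 1 control library and each square 1 weedy library. GI Glyma10g36600 stands between 5.25 and 5.58 in 2011 and between 3.96 and 4.77 in the other seasons, while 5 of the 7 copies have their lowest libraries in 2009.

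Levels differed between seasons, and the smallest adjusted p was that of the abundant copy GI Glyma10g36600. By the moderated F test of limma over the 4 seasons, with treatment in the fit, 7 of 7 members passed an adjusted p of 0.05, where 67.1% of the 30456 genes tested passed. Adjusted p ran from 2.28e-05 for GI Glyma10g36600 to 0.0113 for GI Glyma09g07240. A season difference was thus the rule among all genes. The call ended for TOC1 Glyma06g21120 without the control library of 2008 (adjusted p = 0.0568), for TOC1 Glyma17g11040 without the control library of 2009 (adjusted p = 0.108) and for GI Glyma09g07240 without the weedy library of 2009 (adjusted p = 0.0782). Fewer members passed in fits of 1 treatment, which hold 1 library each for 2008 and 2009. The share of all genes passing in those fits is not given here. They are thus not read as a season response that differs between treatments. In bulk leaf tissue, fewer cells of a type and less RNA per cell cannot be told apart.

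GI Glyma10g36600 rose in 2011. Its log2 level in the control and the weedy plot was 4.56 and 4.77 in 2008, and 4.41 and 4.43 in 2009. In 2010 it was 4.09 and 3.96 in 76 cm rows and 4.005 and 4.13 in 18 cm rows. In 2011 it was 5.58 and 5.25 in 76 cm rows and 5.52 and 5.53 in 18 cm rows. All 4 libraries of 2011 lay above the other 8, whatever the treatment, a pattern shown by 1 of 7 members and by 5.39% of all genes tested. From 2010 to 2011 the level rose by 1.42 ± 0.09 on the log2 scale (SE), or 2.68-fold, with an adjusted p of 1.25e-05 in limma. It exceeded that of 2009 by 1.05 ± 0.12, or 2.07-fold (adjusted p = 0.000864). The years 2010 and 2009 differed by -0.37 ± 0.12, which did not pass (adjusted p = 0.119), and 2008 stood 0.02 from the mean of later seasons (adjusted p = 0.910). Without the weedy library with 18 cm rows of 2011 the rise from 2010 was 1.40 (adjusted p = 0.000110).

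GI Glyma20g30980 followed another order of seasons, with its highest libraries in 2008 and its lowest in 2009. The control and weedy levels were 5.03 and 5.12 in 2008, and 3.57 and 4.09 in 2009. They were 4.50 and 4.27 in 76 cm rows and 4.33 and 4.34 in 18 cm rows in 2010, and 4.80 and 4.59 in 76 cm rows and 4.59 and 4.83 in 18 cm rows in 2011. Both libraries of 2008 lay above the other 10, which 18.4% of all genes also showed. The level of 2008 was 0.78 ± 0.13 above the mean of the later seasons (SE, adjusted p = 0.000675), 1.72-fold. The level of 2011 was 0.87 ± 0.14 above that of 2009 (adjusted p = 0.00533), but only 0.34 ± 0.12 above that of 2010 (adjusted p = 0.0371). The last call was not stable. It was lost in 7 of the 12 fits that left out 1 library and kept in the rest. The adjusted p was highest, at 0.104, when the control library with 76 cm rows of 2011 was dropped. The call was also lost when the libraries of 2008 were dropped (adjusted p = 0.0512). The call of 2011 against 2009 ended without the control library of 2009 (0.60, adjusted p = 0.0762).

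The low copy GI Glyma09g07240 had its lowest libraries in 2009, as had GI Glyma20g30980. Its control and weedy levels were 1.68 and 1.84 in 2008, and 0.74 and 0.51 in 2009. They were 1.32 and 1.31 in 76 cm rows and 1.19 and 1.62 in 18 cm rows in 2010, and 2.23 and 1.28 in 76 cm rows and 1.58 and 1.52 in 18 cm rows in 2011. Both libraries of 2009 lay below all others, and the control plot with 76 cm rows of 2011 stood highest. Between 2009 and 2011 it rose by 1.02 ± 0.23 (adjusted p = 0.0173), a call that ended without the control library of 2009 (adjusted p = 0.106) or the weedy library of 2009 (adjusted p = 0.112). The difference of 0.29 between 2011 and 2010 did not pass (adjusted p = 0.248).

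Which of the abundant GI copies stood higher differed between 2010 and 2011. The log2 ratio of GI Glyma10g36600 to GI Glyma20g30980 was -0.31 ± 0.08 (SD, n = 4 libraries) in 2010, with a range from -0.41 to -0.21, and 0.77 ± 0.12 in 2011, with a range from 0.66 to 0.93. The ratio was below 0 in every library of 2010 and above 0 in every library of 2011, so the copy that was the lower of the pair in 2010 was the higher in 2011. In the control and weedy library it was -0.47 and -0.36 in 2008, and 0.83 and 0.34 in 2009, so the sign changed from season to season. An exact permutation test over the 8 libraries, two-sided, gave p = 0.0286, the smallest that 4 against 4 libraries allow. This test was added after the values were seen, and 9 pairs of copies of 1 gene were compared in this way. The adjusted p over the 9 pairs was 0.0857, so 0 of 9 pairs passed. At the smallest p allowed, a pair can pass only when most of the 9 pairs also reach it. The failure to pass is thus not read as a lack of difference. The other pairs at the same p were GI Glyma10g36600 with GI Glyma09g07240, whose log2 ratio was 1.13 higher in 2011, and TOC1 Glyma05g00880 with TOC1 Glyma04g33110, whose ratio was 0.39 higher.

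**Figure D2:**
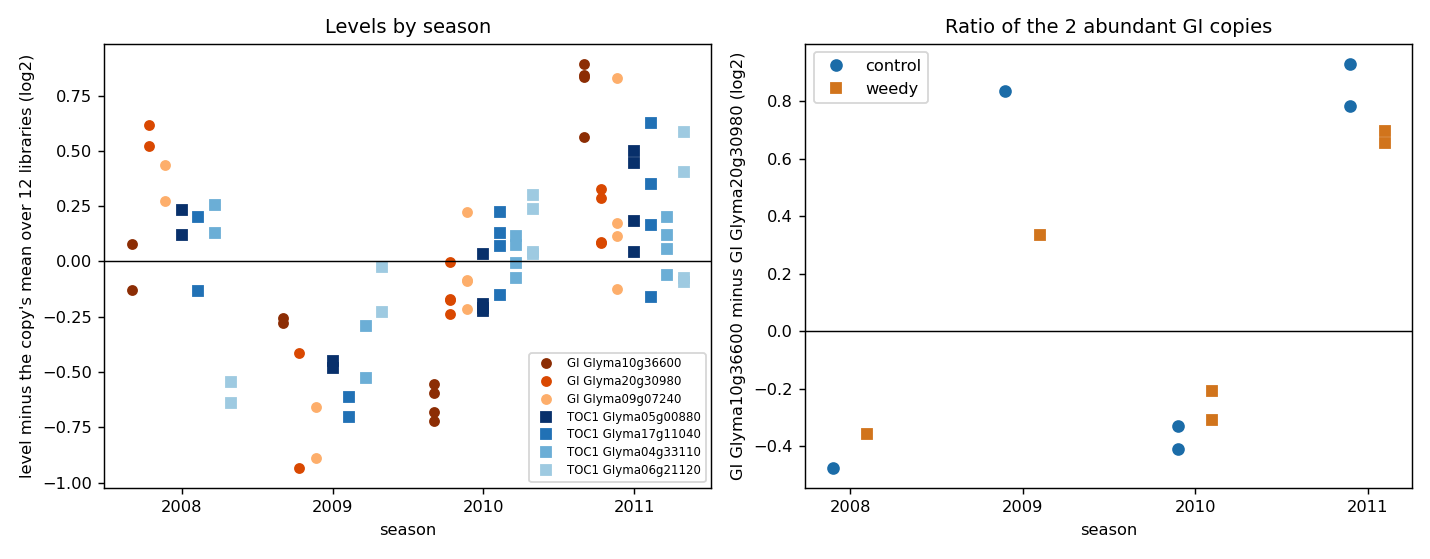
Left, level of each copy minus its own mean over 12 libraries (y axis, log2) by season (x axis), 1 point per library, with GI copies as circles and TOC1 copies as squares. Right, log2 ratio of GI Glyma10g36600 to GI Glyma20g30980 in each library (y axis) by season (x axis): all libraries of 2010 lie between -0.41 and -0.21 and all of 2011 between 0.66 and 0.93.

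Of the TOC1 copies, the most abundant rose in 2011. TOC1 Glyma05g00880 had control and weedy levels of 4.53 and 4.41 in 2008, and 3.84 and 3.81 in 2009. They were 4.10 and 4.07 in 76 cm rows and 4.33 and 4.08 in 18 cm rows in 2010, and 4.79 and 4.34 in 76 cm rows and 4.48 and 4.74 in 18 cm rows in 2011. All libraries of 2011 lay above all of 2010, as for 3 of 7 members and 18.5% of all genes, but the lowest of 2011, at 4.34, barely cleared the highest of 2010, at 4.33. It rose by 0.44 ± 0.11 from 2010 to 2011 (SE, adjusted p = 0.00874, limma), 1.36-fold, and stood 0.76 ± 0.13 above 2009 (adjusted p = 0.00658). The latter call ended without the control library of 2009 (adjusted p = 0.0773).

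TOC1 Glyma17g11040 was lowest in 2009 and did not differ detectably between 2010 and 2011. Its control and weedy levels were 3.69 and 4.02 in 2008, and 3.12 and 3.21 in 2009. They were 3.89 and 3.67 in 76 cm rows and 4.04 and 3.95 in 18 cm rows in 2010, and 4.45 and 3.66 in 76 cm rows and 4.17 and 3.99 in 18 cm rows in 2011. The seasons 2010 and 2011 overlapped, and both 2009 libraries lay below the rest. In 2011 it stood 0.90 ± 0.18 above 2009 (adjusted p = 0.0117), a call that ended without the control library of 2009 (adjusted p = 0.127), and 0.18 ± 0.15 above 2010 (adjusted p = 0.370).

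TOC1 Glyma04g33110 was the steadiest copy, with an SD of 0.22 over the 12 libraries. Its control and weedy levels were 3.64 and 3.51 in 2008, and 3.09 and 2.86 in 2009. They were 3.46 and 3.38 in 76 cm rows and 3.50 and 3.31 in 18 cm rows in 2010, and 3.51 and 3.32 in 76 cm rows and 3.59 and 3.44 in 18 cm rows in 2011. Outside 2009 all libraries lay within 3.31 and 3.64. Its level in 2010 was 0.44 ± 0.08 above that in 2009 (adjusted p = 0.0289), the only member that passed there, where 1.74% of all genes passed and 0.929% passed upward. That call ended in 7 of the 12 fits that left out 1 library, with an adjusted p of up to 0.169 without the control library of 2009. Dropping the libraries of 2008 (adjusted p = 0.0514) or the treatment term (adjusted p = 0.0636) ended it too. From 2009 to 2011 the rise was 0.49 ± 0.08 (adjusted p = 0.00542), which ended without the weedy library of 2009 (adjusted p = 0.0518).

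TOC1 Glyma06g21120 was lowest in 2008. Its control and weedy levels were 1.89 and 1.79 in 2008, and 2.41 and 2.21 in 2009. They were 2.74 and 2.48 in 76 cm rows and 2.47 and 2.67 in 18 cm rows in 2010, and 2.84 and 2.34 in 76 cm rows and 3.02 and 2.36 in 18 cm rows in 2011. Both libraries of 2008 lay below the other 10, as for 20.8% of all genes, and no other member showed this. The level of 2008 was 0.67 ± 0.14 below the mean of later seasons (adjusted p = 0.00280), 1.59-fold lower, and this call ended without the control library of 2008 (-0.58, adjusted p = 0.0563). The level of 2011 was 0.05 ± 0.13 above that of 2010 (adjusted p = 0.766).

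Counted over the members, the season differences fell mostly between 2009 and 2011. Of 7 members 6 were higher in 2011 than in 2009, all but TOC1 Glyma06g21120, against 19.3% of all genes called in either direction and 10.9% called higher. Without the control library of 2009 most of these calls ended, as did most of those among the other clock genes described below. That fit leaves 1 library in 2009. Both libraries of 2009 lay below the other 10 in 5 of 7 members, where 3.14% of all genes showed this. From 2010 to 2011, 3 of 7 members rose and 0 fell, beside 41.2% of all genes called and 20.5% called higher. For 2008 against the mean of later seasons, 2 members were higher (GI Glyma20g30980 and TOC1 Glyma04g33110) and 1 was lower, beside 51.9% of all genes called, 24.6% higher and 27.3% lower. The call of TOC1 Glyma04g33110, 0.29 ± 0.07, ended without the weedy library of 2008 (adjusted p = 0.0775). These contrasts share libraries, and the members are not independent of each other. The mesophyll marker sum also moved with season, from 12.74 to 13.47 in 2010 to 13.37 to 14.24 in 2011, and its part in these differences was not tested.

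No copy of GI or TOC1 passed the test between weedy and control plots. With season in the fit, limma called 0 of 7 members and 0% of the 30456 genes between weedy and control plots. At an unadjusted p under 0.05 there were 2 of 7 members and 3293 genes, 10.8% of those tested. All 4 TOC1 copies had values below 0, with a median of -0.15, and the 3 GI copies had values from -0.11 to 0.07, with a median of -0.02. Values below 0 were found in 52.1% of all genes, whose median was -0.01.

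TOC1 Glyma04g33110 was lower in the weedy plot in 6 of 6 pairs of plots, a pattern found in 2.8% of all genes. The weedy level was 0.16 ± 0.05 below the control level (SE, n = 6 libraries per treatment, unadjusted p = 0.0131, adjusted p = 0.324 in limma), with a 95% interval from -0.28 to -0.04. The pairs ran from -0.23 in 2009 to -0.08 in the 76 cm rows of 2010. The value was small but even across seasons, and stood at -0.16 without the year 2011.

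TOC1 Glyma06g21120 was lower in 5 of 6 pairs, the exception being the 18 cm rows of 2010, where the weedy plot was 0.21 higher. Over all pairs the weedy level was 0.25 ± 0.10 below the control level (unadjusted p = 0.0358, adjusted p = 0.424). The pairs of 2011 stood at -0.50 and -0.66, and without that year the value was -0.09. TOC1 Glyma05g00880 was also lower in 5 of 6 pairs, with a value of -0.10 ± 0.09 (adjusted p = 0.708). At least 5 of 6 pairs lower was seen in 3 of 7 members and in 15.9% of all genes.

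GI did not differ detectably between weedy and control plots. For GI Glyma10g36600 the difference was -0.02 ± 0.08 (adjusted p = 0.961), with a 95% interval from -0.19 to 0.15, and the weedy plot was higher in 4 of 6 pairs. For GI Glyma20g30980 it was 0.07 ± 0.09 (adjusted p = 0.834), and the widest pair was that of 2009, where the weedy plot was 0.52 higher. For GI Glyma09g07240 it was -0.11 ± 0.16 (adjusted p = 0.847), and its pairs ran from -0.96 in the 76 cm rows of 2011 to 0.44 in the 18 cm rows of 2010. TOC1 Glyma17g11040, at -0.14 ± 0.12 (adjusted p = 0.711), likewise held pairs of both signs, from -0.79 in the 76 cm rows of 2011 to 0.33 in 2008.

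**Figure D3:**
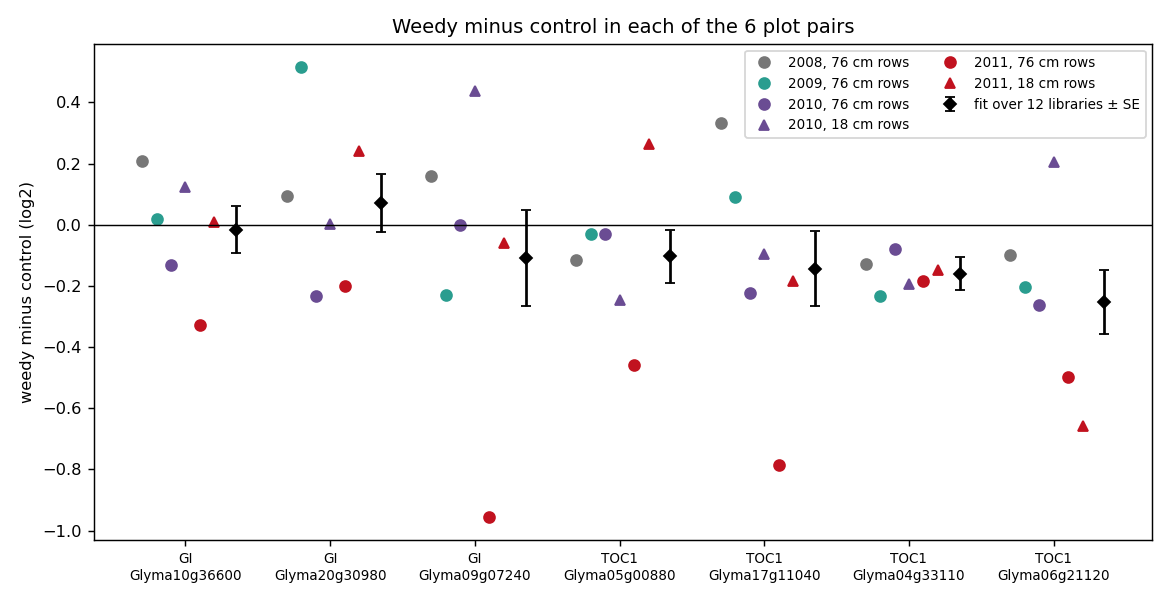
Weedy minus control level (y axis, log2) of each copy (x axis) in the 6 pairs of plots, with season as colour and row spacing as shape, and the estimate over 12 libraries with its SE in black. TOC1 Glyma04g33110 lies below 0 in 6 of 6 pairs, and the lowest points of GI Glyma09g07240 and TOC1 Glyma17g11040 are the 76 cm rows of 2011, at -0.96 and -0.79.

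Replicate plots within a treatment existed in 2010 and 2011, and no copy passed the test in either season. In 2010, limma called 0 of 7 members and 0 genes in all, with 0 members and 2632 genes (8.64%) at an unadjusted p under 0.05, and the values of the members ran from -0.16 to 0.22. In 2011 it again called 0 members and 0 genes, with 2 members and 3655 genes (12%) at an unadjusted p under 0.05. Those were TOC1 Glyma06g21120, with a weedy level 0.58 ± 0.14 below control (SE, n = 2 libraries per treatment, unadjusted p = 0.00466, adjusted p = 0.238, limma), and TOC1 Glyma17g11040, 0.49 ± 0.17 below (unadjusted p = 0.0215, adjusted p = 0.321). GI Glyma09g07240 stood at -0.51 ± 0.24 (adjusted p = 0.465), of which the pair in 76 cm rows gave -0.96 and the pair in 18 cm rows -0.06. GI Glyma10g36600 stood at -0.16 and GI Glyma20g30980 at 0.02. Without the weedy library with 18 cm rows of 2011, for which a read file is marked corrupt, TOC1 Glyma06g21120 stood at -0.59 (adjusted p = 0.619) and TOC1 Glyma17g11040 at -0.65 (adjusted p = 0.599).

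Both weedy libraries of 2011 lay below both control libraries in 4 of 7 members, namely GI Glyma09g07240 and the TOC1 copies Glyma17g11040, Glyma04g33110 and Glyma06g21120, beside 27% of all genes. In 2010 the same held for 2 of 7, TOC1 Glyma05g00880 and TOC1 Glyma04g33110, beside 17.9%. The difference between the weed effects of 2011 and 2010 passed for 0 of 7 members and for 0 genes in limma, with 1 member and 4181 genes (13.7%) at an unadjusted p under 0.05. That member was TOC1 Glyma06g21120, at -0.55 ± 0.20 (adjusted p = 0.325). In 2011 the mesophyll marker sum was 14.21 to 14.24 in weedy and 13.37 to 13.70 in control libraries, and the sum of 12 secondary wall genes was 6.29 to 6.65 in weedy and 6.78 to 7.70 in control libraries. The meristem marker, at low levels, stood at 0.41 to 0.69 in weedy and 1.11 to 1.15 in control libraries. In 2010 the mesophyll sum lay the other way, at 12.74 to 13.03 in weedy and 13.44 to 13.47 in control libraries, while the secondary wall sums overlapped. The part of these tissue markers in the weed differences was not tested.

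The authors' deposited table also gives Cuffdiff p and q values per season. For 2011 the authors' deposited table lists TOC1 Glyma17g11040 at q = 0.0256 and TOC1 Glyma06g21120 at q = 0.0349, with GI Glyma09g07240 at q = 0.0509. In the authors' deposited table the other 4 members had q values from 0.409 to 0.971 in 2011, and all 7 had q values from 0.659 to 0.992 in 2010. At a threshold of 0.05, limma thus called no TOC1 copy in 2011, and the authors' deposited table puts 2 below it. The share of all genes with such a q value was not counted here, so these 2 are not read as particular to TOC1.

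Row spacing did not move the members detectably. Between 18 and 76 cm rows in 2010 and 2011, limma called 0 of 7 members and 0 genes, with 0 members and 2404 genes (7.89%) at an unadjusted p under 0.05. Values ran from -0.06 for GI Glyma09g07240 to 0.12 for TOC1 Glyma17g11040. Spacing and replicate number cannot be told apart.

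Likeness between copies over the 12 libraries varied, and TOC1 Glyma06g21120 was least like the rest. As a description, with season shared by all points, Pearson's r between GI Glyma09g07240 and TOC1 Glyma17g11040 was 0.86, between GI Glyma20g30980 and TOC1 Glyma05g00880 0.80, between GI Glyma10g36600 and TOC1 Glyma05g00880 0.72, and between the abundant GI copies 0.47. TOC1 Glyma06g21120 had r from -0.29 with GI Glyma20g30980 to 0.41 with TOC1 Glyma17g11040. Among 30449 other genes, those most like GI Glyma10g36600 were Glyma11g04260 (DL4605C), a pleckstrin homology domain protein, Glyma04g14810 (HGL1), a heteroglycan glucosidase, and Glyma0169s00210 (MDAR1), a monodehydroascorbate reductase, with r of 0.99, 0.99 and 0.98. Those most like TOC1 Glyma05g00880 were Glyma11g02580 (F2K11.14), a jumonji protein, Glyma20g00730 (T28M21.13), a mitochondrial carrier, and Glyma15g00720 (T21F11.10), an RNI-like protein, with r of 0.97, 0.97 and 0.96.

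The rest of the clock was read from a list of 48 Arabidopsis loci, of which 31 were found, as 97 other genes. Between weedy and control plots limma called 0 of the 97, and 27 had an unadjusted p under 0.05 (27.8%, beside 10.8% of all genes), 26 of them higher in weedy plots and 1 lower. The median over the 97 was 0.08, against a median of -0.15 for the TOC1 copies. All 4 LHY genes, whose Arabidopsis counterpart represses evening genes around dawn, had values above 0 in weedy plots. A link between these values and those of GI or TOC1 was not tested. LHY Glyma19g45030 stood at 0.70 ± 0.13 over all seasons (adjusted p = 0.101) and at 1.18 ± 0.14 in 2011 (adjusted p = 0.180). Of the LNK and RVE genes of the morning, which activate evening genes in Arabidopsis, 17 of 21 had values above 0. LNK3 Glyma04g16720 stood at 0.75 ± 0.12 (adjusted p = 0.101). Of the 4 below 0, LNK1 Glyma05g24590 stood at -0.61 ± 0.16 (adjusted p = 0.207). Of the CDF genes, Dof repressors of flowering that GI and FKF1 mark for destruction in Arabidopsis, 11 of 13 had values above 0. CDF3 Glyma04g33410 stood at 0.54 ± 0.07 (adjusted p = 0.101). Values above 0 were also seen in 9 of 11 day-phased pseudo-response regulators and 5 of 6 RVE1 and RVE7 genes. The count was 7 of 12 for ELF3 and ELF4-like genes and 4 of 6 for F-box genes. It was 9 of 21 for other clock-associated genes, 1 of 2 for PIF4 and 1 of 1 for FT. Of all 97, 68 were above 0, while of all genes tested 52.1% were below 0.

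By the season F test and between 2011 and 2010, calls among the other clock genes were about as common as among all genes. They were more common between 2011 and 2009, at 32.0% beside 19.3% of all genes. Between 2010 and 2009 they stood at 5.15% beside 1.74%. Of the 97 genes 69 passed the season F test of limma (71.1%, beside 67.1% of all genes), and between 2011 and 2010, 16 were higher and 22 lower (39.2%, beside 41.2% of all genes). From 2010 to 2011 the LHY genes ran opposite to GI Glyma10g36600, and a link between them was not tested. Of 4 LHY genes 3 fell, among them LHY Glyma19g45030 by 1.05 ± 0.16 (adjusted p = 0.000943). From 2009 to 2011 all 4 LHY genes were called lower, with a median of -1.26, and this GI copy was called higher, at 1.05. Of all genes, 19.3% were called in either direction from 2009 to 2011 and 10.9% called higher. From 2009 to 2010 the values of all 4 LHY genes and of GI Glyma10g36600 were below 0, and none passed. For 2008 against the mean of later seasons 3 LHY genes were called higher, while this GI copy stood at 0.02. All 6 RVE1 and RVE7 genes, Mybs of clock output, were lower in 2011 than in 2010, with RVE1 Glyma14g39130 at -1.24 ± 0.13 (adjusted p = 0.000151). Of all genes, 41.2% were called in either direction between those seasons and 20.5% called higher, the rest of those called being lower. Of the day-phased pseudo-response regulators 4 of 11 were higher in 2011 than in 2010, beside 20.5% of all genes, and 8 of 11 were higher in 2011 than in 2009, beside 10.9%, with PRR5 Glyma04g40640 at 1.87 ± 0.22 above 2009 (adjusted p = 0.00125). Over all 97 clock genes, 31 were called between 2011 and 2009, and this count fell to 3 without the control library of 2009 and to 16 without the weedy library of 2009.

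**Figure D4:**
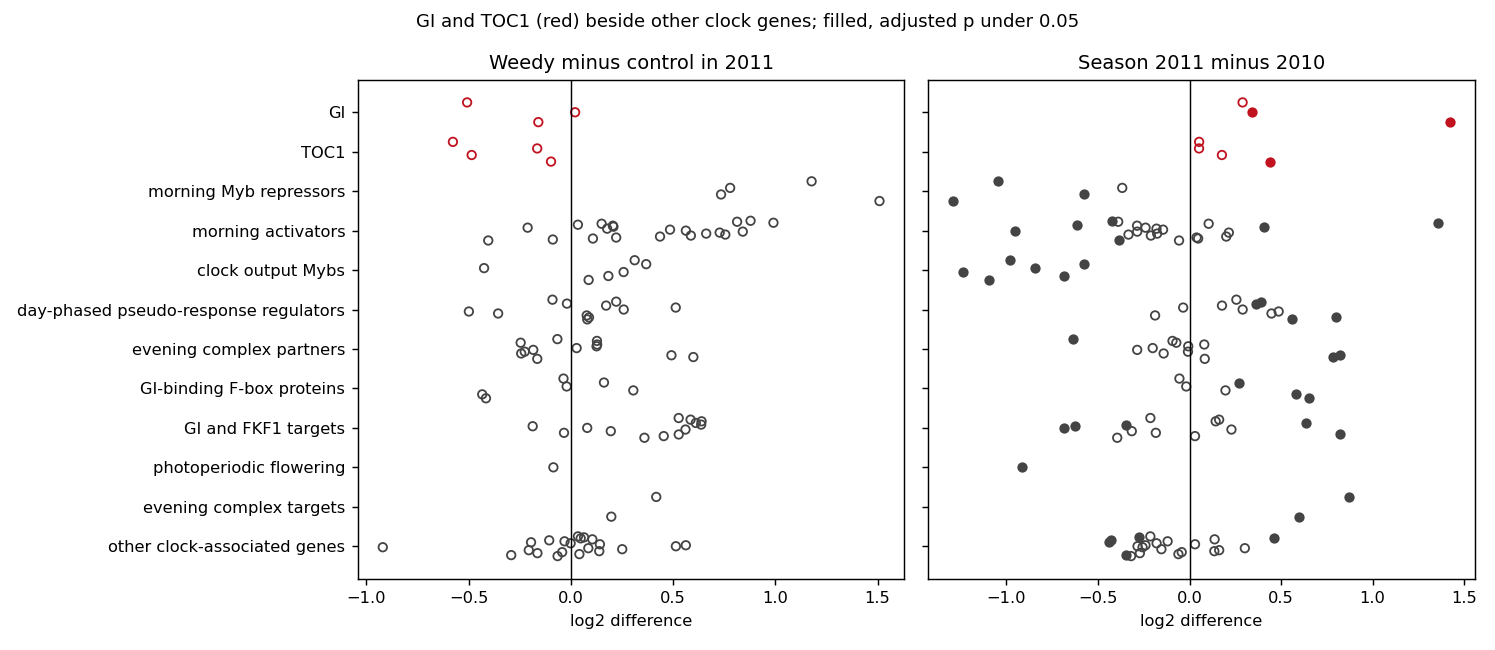
Log2 difference (x axis) of the GI and TOC1 copies, in red, and of the 97 other clock genes, in grey, by role (y axis), for weedy minus control in 2011 on the left and 2011 minus 2010 on the right. Filled points passed an adjusted p of 0.05 in limma. No point passed on the left, and on the right GI Glyma10g36600 lies at 1.42.

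Among genes for proteins that bind GI or act beside TOC1, most did not pass between 2010 and 2011. Of 6 F-box genes of the ZTL and FKF1 type, 3 were higher in 2011 than in 2010 and 0 lower, beside 20.5% of all genes called higher and 41.2% called in either direction, with ZTL Glyma15g17480 at 0.27 ± 0.09 (adjusted p = 0.0318). Of 12 ELF3 and ELF4-like genes, partners of LUX in the evening complex of Arabidopsis, 2 were higher and 1 lower, a share of 25% that is below that of all genes, with ELF3 Glyma07g01600 at 0.78 ± 0.16 (adjusted p = 0.00369). Both PIF4 genes, growth regulators that the evening complex represses in Arabidopsis, were higher in 2011, with PIF4 Glyma18g14530 at 0.87 ± 0.17 (adjusted p = 0.00291). FT Glyma02g07650, a mobile flowering signal, fell by 0.92 ± 0.26 (adjusted p = 0.0186), with levels between 0.75 and 2.58 over the 12 libraries.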

How the data were processed

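RNA sequencing libraries of 12 plots were compared from 1 table of the whole series. The authors deposited log2 FPKM levels from the Tuxedo programs with Phytozome 9.0 annotation, per the file headers. TopHat, Cufflinks and Cuffdiff, each version 1.0, are named in the submitters' processing notes. The sources used here do not give the genome build, the strand or any number added before the log. All 12 columns hold the same sorted values, a scaling that hides any change shared by most genes. Per the file headers the deposited table also holds log2 ratios and the authors' Cuffdiff p-value and q-value columns for 2010 and 2011. Depth is unknown.

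Of 30498 entries, 39 that shared 19 identifiers were left out. A minimum log2 level of 1 in 3 or more libraries then removed 3 of 30459 genes. The log2 values were fitted as they stand with limma 3.58.1 (R 4.3.3, statmod 1.5.0), whose eBayes step used a trend and robust estimation, two-sided, with Benjamini-Hochberg adjustment over 30456 genes and a threshold of 0.05. Weedy minus control had season as a covariate, season contrasts had treatment, and the fits within 2010 and 2011 and for row spacing used those 8 libraries. Plots are the replicates, but the p-values do not measure the spread between like plots alone. In 2010 and 2011 the plots of a treatment are taken to differ in row spacing. Their spread thus includes any effect of spacing in fits without a spacing term. The other seasons have 1 library per treatment. There, spread between plots cannot be told apart from a change of the weed effect between seasons. Steps were tested on simulated data.

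The clock list holds other genes of the pathway by Arabidopsis locus. From it were named, per role, the genes of smallest p for weedy minus control and for the season F test, and for the most abundant copy of GI and of TOC1 the 3 genes of highest Pearson's r. The members and lists were chosen with earlier results of these data known. No member identifier matched the reference gene table (0 matched). Gene names therefore come from the deposited table, and no sequence is printed. Alternatives tried were another filter or none, 1 added before the log, eBayes without its options, a replicate block, season or treatment left out of the fit, 1 treatment only, and each library or year left out. The fit of season contrasts without 2008 and the copy-pair test were added after the data were seen.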

Additional observations from a re-analysis of the deposited data

Results flagged for a closer look

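Of 35 groups of 4 or 6 values, from libraries or from plot pairs, examined for a value far from the rest, 3 held one. Chance alone gives about 1 in 20 for values drawn alike. Groups of 1 treatment pool 4 seasons, so that rate does not apply to them. In TOC1 Glyma04g33110 the 2009 library stood apart in both treatments, at 3.09 among control libraries that otherwise lay between 3.46 and 3.64, and at 2.86 among weedy libraries that otherwise lay between 3.31 and 3.51. In TOC1 Glyma05g00880 the control plot with 18 cm rows of 2010, at 4.33, stood above the other libraries of that season, at 4.07 to 4.10.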

How the results depend on the processing

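No paired pattern was seen: deviations of same-numbered plots correlated at -0.05 in 2010 and 0.05 in 2011, and with replicate block limma called 0 members for each weed effect, as without it. The season F test was also fitted in control libraries only and in weedy libraries only, with 6 libraries each and 1 library each for 2008 and 2009. Fewer members passed than in the fit of 12 libraries, and the share of all genes passing there is not given here. The 1 member called between 2010 and 2009 was lost (0 called) with no treatment in the fit and without the year 2008; the cause was not tested. Leaving out 1 library at a time, members called ranged from 6 to 7 for the season F test, 2 to 3 for 2011 minus 2010, 0 to 2 for 2010 minus 2009, 2 to 6 for 2011 minus 2009 and 2 to 4 for 2008. Weedy minus control changed sign, uncalled, to -0.019 for GI Glyma20g30980 without the year 2009, and to 0.092 for GI Glyma09g07240, 0.056 for GI Glyma10g36600 and 0.026 for TOC1 Glyma17g11040 without the year 2011. Without 1 library, uncalled weed values that changed sign ran from -0.19 to 0.024 for GI Glyma09g07240, -0.061 to 0.037 for GI Glyma10g36600 and -0.019 to 0.11 for GI Glyma20g30980. In 2010 they ran from -0.086 to 0.081 for GI Glyma10g36600 and -0.16 to 0.11 for TOC1 Glyma06g21120, and in 2011 from -0.099 to 0.14 for GI Glyma20g30980 and -0.30 to 0.11 for TOC1 Glyma05g00880. The difference of weed effects ran from -0.086 to 0.030 for TOC1 Glyma04g33110 and -0.16 to 0.24 for TOC1 Glyma05g00880. Row spacing ran from -0.18 to 0.14 for GI Glyma09g07240, -0.10 to 0.045 for GI Glyma20g30980, -0.027 to 0.21 for TOC1 Glyma05g00880 and -0.023 to 0.13 for TOC1 Glyma06g21120. The step from 2010 to 2011 ran from -0.042 to 0.13 for TOC1 Glyma06g21120, and 2008 minus later seasons from -0.12 to 0.15 for GI Glyma10g36600 and -0.14 to 0.44 for TOC1 Glyma17g11040. The change of log2 ratio ran from -0.043 to 0.22 for GI Glyma20g30980 to GI Glyma09g07240 and -0.085 to 0.085 for TOC1 Glyma04g33110 to TOC1 Glyma06g21120. All other values computed kept their direction. Lost calls are given above, except those of the season F test in fits of 1 treatment, which are not listed by member. Calls were gained for 2008 minus later seasons by GI Glyma09g07240 without control replicate 1 of 2011 or weedy replicate 2 of 2010, with plain eBayes or with no treatment in the fit (adjusted p = 0.0094 to 0.0474) and by TOC1 Glyma05g00880 without weedy replicate 2 of 2011 (0.0366), for 2010 minus 2009 by TOC1 Glyma17g11040 without weedy replicate 1 of 2011 (0.0441), and for weedy minus control by 1 of 97 other clock genes without weedy replicate 1 of 2010. GI Glyma09g07240 has no value under the filter at a mean log2 level of 2. Depth is unknown, and with 2 plots per treatment and season small differences of low copies are not detectable.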
